A study of Homo sapiens with 118 samples.

Results

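The genes described here were 10 that code for albumin, its family and other carrier proteins of blood plasma: ALB, AFP, AFM, GC, TTR, RBP4, TF, AHSG, HPX and AMBP. They were taken from the count table as the rows whose gene symbol was one of these names, which gave 10 genes of 19470 symbols, each with 1 detector probe, and so 10 of 22068 rows (called features below). Expression was measured by TempO-Seq, in which pairs of probes are hybridised to a transcript, ligated, barcoded, amplified and sequenced, in HepaRG, an established human liver cell line that had been differentiated, frozen and thawed before use. Exposure lasted 72 hours, with daily renewal, and each culture received 1 of 8 histone deacetylase inhibitors at 5 concentrations, from C1 (lowest) to C5 (highest). The series served to define transcripts by which such inhibitors can be recognised. These compounds keep acetyl groups on histones and on other proteins by blocking the enzymes that take them off. The C1 and C5 concentrations were 0.0417 and 0.86 µM for apicidin, 0.177 and 3.9 µM for mocetinostat, 0.00147 and 0.084 µM for panobinostat, 4.94 and 94.5 µM for scriptaid, 1.14 and 44 µM for tacedinaline, 0.0188 and 1.52 µM for trichostatin A and 0.405 and 23.5 µM for vorinostat. For valproic acid the labels gave 100.5 and 3038 as µM, but the protocol text gave smaller numbers, so its unit is uncertain. All 40 groups shared the cell line, the exposure time and the daily renewal. Each held 3 libraries, 1 from each of 3 HepaRG batches (replicates 1, 2 and 3), except panobinostat C3 and trichostatin A C4, which had 2 and lacked batch 3. The libraries of scriptaid, tacedinaline and vorinostat lay on plate E and the others on plate H. Concentrations were compared within 1 chemical, and only a test of differences between chemicals and correlations over group means used both plates. Solvent-control libraries were not analysed here, so each chemical's own C1 group was the reference, and a change that C1 itself had brought about is missing from the values. The batches are cultures of 1 line, so the p-values measure the spread between batches of that line.

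Albumin is the most abundant protein of plasma, where it holds the colloid osmotic pressure and carries fatty acids, bilirubin, hormones and drugs. Its gene forms a small family with those for alpha-fetoprotein (AFP), its counterpart in fetal blood, afamin (AFM), which binds vitamin E, and the vitamin D binding protein (GC), which also binds free actin. Hepatocytes secrete these proteins together with unrelated carriers such as transthyretin (TTR), retinol binding protein (RBP4), transferrin (TF), hemopexin (HPX), fetuin-A (AHSG) and the precursor of alpha-1-microglobulin and bikunin (AMBP). Albumin and its relatives depend in liver on promoter-bound hepatocyte factors such as C/EBP and FOXA proteins, and ALB is widely used as a marker of differentiated hepatocytes.

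In the RefSeq annotation of GRCh38.p14, ALB, AFP and AFM are neighbouring protein-coding genes on chromosome 4, in this order, between ANKRD17 and RASSF6. GC lies on the same chromosome between SLC4A4 and NPFFR2. Promoter sequence from RefSeq was at hand for 8 of the 10 genes. Shown here are the 150 bases before the annotated start of the 3 clustered genes and of AHSG. AFM and AHSG gave the lowest median fitted log2 changes at C5 without trichostatin A (-6.67 and -5.97). Some of these fitted values rest on C5 groups with almost no counts, where the depth of the fall is uncertain. ALB and AFP are the neighbours they are compared with. Capitals mark matches, on either strand, to GTTAAT (a motif of liver promoters), CCAAT (or ATTGG on the other strand), TATAAA (the TATA box) and TGTTTGC (a FOXA site, or GCAAACA on the other strand). All 4 genes lie on the plus strand, and the windows are chr4:73404137-73404286 (ALB), chr4:73436071-73436220 (AFP), chr4:73481595-73481744 (AFM) and chr3:186612910-186613059 (AHSG), each read 5′ to 3′.
ALB: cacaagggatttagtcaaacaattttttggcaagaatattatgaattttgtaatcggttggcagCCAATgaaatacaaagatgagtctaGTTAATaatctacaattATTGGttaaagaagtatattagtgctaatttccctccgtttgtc
AFP: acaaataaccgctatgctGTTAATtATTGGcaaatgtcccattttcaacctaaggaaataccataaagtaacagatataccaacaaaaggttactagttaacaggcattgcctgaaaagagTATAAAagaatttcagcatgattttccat
AFM: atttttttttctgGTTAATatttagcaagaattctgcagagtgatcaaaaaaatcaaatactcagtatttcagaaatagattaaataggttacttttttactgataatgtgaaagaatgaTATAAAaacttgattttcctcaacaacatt
AHSG: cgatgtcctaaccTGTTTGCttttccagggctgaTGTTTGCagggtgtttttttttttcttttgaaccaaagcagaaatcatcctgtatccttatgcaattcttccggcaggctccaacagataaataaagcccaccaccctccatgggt

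GTTAAT was present in the windows of ALB, AFP and AFM, and in none of those of the other members at hand. Of 35116 annotated promoter windows of the same length, 3.52% held it. Its start lay 61 bases before the annotated start in ALB, 132 in AFP and 137 in AFM. TATAAA was found in AFP, AFM and 1 of 3 windows of RBP4 (6.71% of all windows), and TGTTTGC at 2 places in AHSG and 1 in AMBP (1.82% of all windows). CCAAT was found in 6 of the 11 windows of the 8 genes (23.5% of all windows) and TTGCNNAA, a C/EBP site, in 5 (5.02%). CAAAGTCCA, part of an HNF4 site, matched no window of the 8 genes (0.222% of all windows). In TF the matches to TTGCNNAA and CCAAT overlap. These are matches of letters only.

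Total counts per library ran from 1061359 to 5250260, with a median of 3702007. The labels name the cells liver progenitor cells. Of 12 features for 10 hepatocyte marker genes, all were tested in every chemical, and their summed level at C1 lay between 2823 and 18489.8 CPM (counts scaled to a fixed library total after TMM adjustment), against 63.1 to 161 for the cholangiocyte or progenitor markers, of which EPCAM and CFTR were at or near 0. Agreement was measured as the mean Pearson correlation of a library with its group mates, over features. The gap between the highest and the lowest value in a group was largest in mocetinostat C2 (0.0782), scriptaid C4 (0.0706) and trichostatin A C1 (0.0462), and in these 3 groups replicate 3 was the lowest, at 0.831, 0.803 and 0.873. The next gaps were 0.0415 in valproic acid C4 and 0.0412 in mocetinostat C3. These 3 libraries are said to stand apart below, a choice made with earlier results known, and the calls at C2 to C5 and by slope of their chemicals are given without them where a count changes by over 1.5 times.

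A member was called as fallen or risen when its adjusted p-value was under 0.05 (edgeR quasi-likelihood test, Benjamini-Hochberg adjustment over all features tested in that chemical) and its fold change was at least 1.5. All 10 members passed the filter on low counts in all 8 chemicals. At C5 against C1 the falling members were 9 of 10 with apicidin (background, the share of all tested features that fell: 15%), 9 with mocetinostat (15.7%), 8 with panobinostat (9.47%), 10 with scriptaid (17%), 10 with tacedinaline (20.1%), 8 with valproic acid (6.22%), 10 with vorinostat (24.9%) and 0 with trichostatin A (0.0154%). This made 64 falls among 80 combinations of member and chemical. No member rose at C5 in any chemical by edgeR or by DESeq2, and 0 of the 80 lay above 0 at an unadjusted p under 0.05. Of all tested features, 13.8% rose with apicidin, 14.8% with mocetinostat, 6.76% with panobinostat, 12.8% with scriptaid, 18.7% with tacedinaline, 0% with trichostatin A, 4.84% with valproic acid and 22.7% with vorinostat. The median log2 change of the 10 members lay between -4.24 (tacedinaline) and -1.23 (panobinostat) when trichostatin A was set aside, whereas the median over all tested features lay between -0.0021 and 0.084 in the 8 chemicals. With tacedinaline the median of the members was -4.09 when AHSG, whose C5 libraries held no count, was set to its bound. In bulk lysates, fewer cells of a type and less RNA per cell cannot be told apart.

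**Figure D1:**
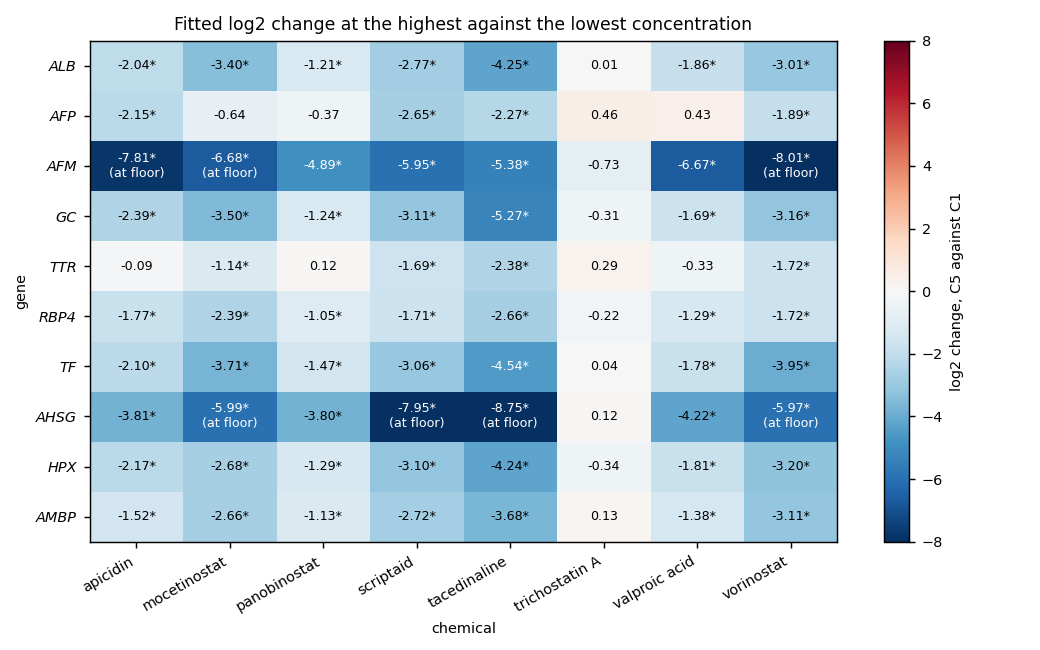
Fitted log2 change at C5 against C1 for each gene (rows) and chemical (columns), coloured from blue (lower at C5) to red (higher). An asterisk marks a called change and "at floor" a group with at most 3 counts in every C5 library, where the fitted value is no bound. The trichostatin A column holds no called change, the AFM and AHSG rows are the darkest in the other columns, and TTR and AFP hold the uncalled cells.

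ALB itself, the major carrier, fell in 7 of 8 chemicals, all but trichostatin A (the 7 chemicals below). With tacedinaline the 3 batches gave 27802, 21642 and 19731 CPM at C1 and 1321, 1385 and 805 CPM at C5, log2 change -4.25 ± 0.15 (SE), adjusted p = 3.91e-25. With mocetinostat they gave 33706, 30889 and 22494 CPM at C1 and 2796, 2988 and 2055 CPM at C5, log2 change -3.40 ± 0.27 (SE), adjusted p = 1.34e-07. In both chemicals every C5 library lay below every C1 library. Panobinostat gave the smallest fall among the 7, from 23881, 22734 and 20881 CPM to 11224, 10012 and 8205 CPM, log2 change -1.21 ± 0.15 (SE), adjusted p = 8.88e-06. The log2 changes with the other chemicals were -2.04 (apicidin), -2.77 (scriptaid), -1.86 (valproic acid) and -3.01 (vorinostat). As a share of all counts of a library, ALB took 2.25% ± 0.388 (SD, n = 3) at C1 and 0.135% ± 0.0355 at C5 of tacedinaline, and the 10 members together 3.71% ± 0.57 and 0.349% ± 0.0662.

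**Figure D2:**
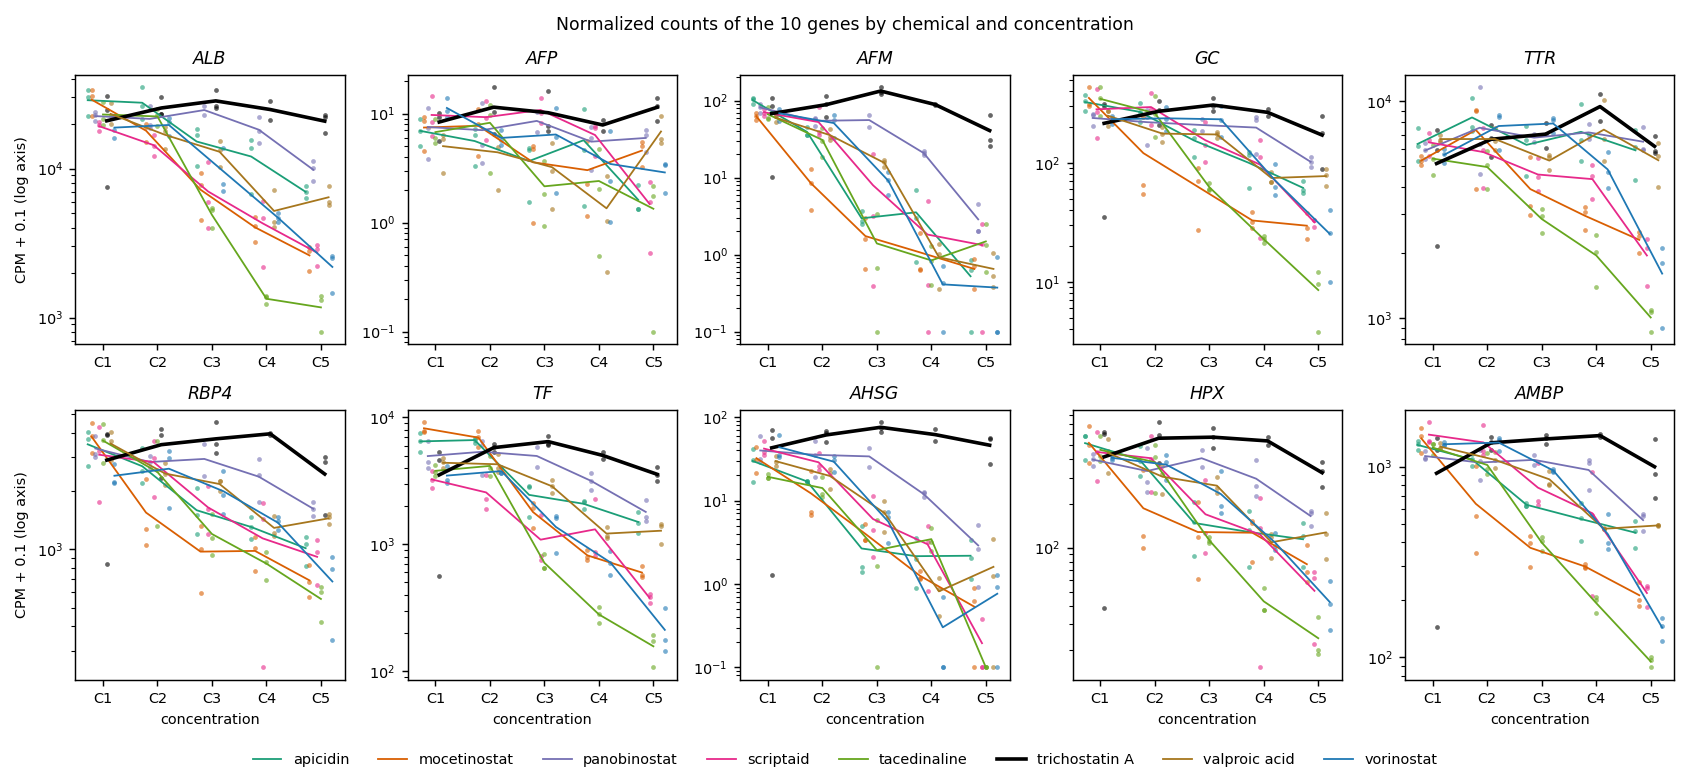
Normalized level of each gene (CPM plus 0.1, log axis) against concentration (C1 to C5), with a colour for each chemical. Points are libraries and lines join group means of 3 libraries, or 2 in panobinostat C3 and trichostatin A C4. The black trichostatin A line stays near the upper edge in most panels while the other lines descend, and the TTR panel is the flattest of the well-expressed genes.

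AFM, the vitamin E binding neighbour of ALB, fell in 7 chemicals, and in each of them its fitted log2 change was lower than those of ALB, AFP and GC. This order was not tested, and with tacedinaline AFM (-5.38) and GC (-5.27) lay close together. With apicidin it went from 104, 109 and 91.3 CPM at C1 to 0.526, 0 and 0.744 CPM at C5, where every library had at most 3 counts, so the fall was at least 134-fold when 3 counts per library were put in their place. The same bound was at least 75.5-fold with mocetinostat and at least 36.4-fold with vorinostat. Counts above this floor remained in at least 1 C5 library with panobinostat (-4.89 on the log2 scale), scriptaid (-5.95), tacedinaline (-5.38) and valproic acid (-6.67). With panobinostat the libraries gave 69.2, 83.4 and 91.6 CPM at C1, 20.9, 19.4 and 21.9 CPM at C4 and 4.47, 1.92 and 1.93 CPM at C5, and the 3 groups did not overlap. AFM was also the only member called at C2, with mocetinostat (68.6, 55.9 and 62.4 CPM at C1 and 8.30, 3.74 and 13.0 CPM at C2, log2 change -2.83 ± 0.51 (SE), adjusted p = 0.0298), and this call was lost when batch 1 or batch 2 was left out (adjusted p = 0.338 and 0.923).

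AFP, the fetal counterpart of albumin, was present at a low level throughout, with 0 to 77 counts per library. It fell in 4 chemicals at C5. With scriptaid it gave 6.15, 8.35 and 14.4 CPM at C1 and 0.425, 2.27 and 1.45 CPM at C5, log2 change -2.65 ± 0.62 (SE), adjusted p = 0.00321. The changes with tacedinaline (-2.27) and vorinostat (-1.89) lost their call whichever batch was left out. The one with apicidin (-2.15) lost its call without batch 2 or without batch 3. With valproic acid the C1 libraries held 5.78, 2.73 and 6.28 CPM and the C5 libraries 5.70, 5.23 and 9.32 CPM, which overlap (log2 change 0.43 ± 0.64 (SE), adjusted p = 0.754). At C4 of valproic acid the values were 2.57, 0.254 and 0.933 CPM (log2 change -1.92 ± 0.73 (SE), adjusted p = 0.088). The values with mocetinostat and panobinostat at C5 were -0.64 and -0.37 on the log2 scale and were not called.

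GC, the vitamin D carrier, fell with all chemicals but trichostatin A. The deepest fall was with tacedinaline, from 437, 249 and 352 CPM at C1 to 9.50, 12.1 and 3.71 CPM at C5, log2 change -5.27 ± 0.28 (SE), adjusted p = 2.23e-19. The shallowest was with panobinostat, from 206, 259 and 251 CPM to 92.4, 113 and 102 CPM, log2 change -1.24 ± 0.24 (SE), adjusted p = 9.56e-04. With vorinostat GC held 248, 215 and 237 CPM at C1 and 301, 231 and 167 CPM at C3, which overlap. At C4 of vorinostat it held 62.4, 53.4 and 97.1 CPM, below all of them (log2 change -1.66 ± 0.24 (SE), adjusted p = 1.72e-06). In mocetinostat C2, replicate 3 held 242 CPM against 54.6 and 65.6 CPM in the other two, and it is 1 of the libraries that stood apart.

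TTR, which carries thyroxine and holds the retinol binding protein in the circulation, fell in 4 chemicals at C5, against 7 for each of the other members except AFP. With tacedinaline it went from 6259.8, 5430.5 and 4584 CPM to 1085, 1066 and 866 CPM, log2 change -2.38 ± 0.15 (SE), adjusted p = 4.99e-17. The falls with mocetinostat, scriptaid and vorinostat were -1.14, -1.69 and -1.72 on the log2 scale, and the one with mocetinostat lost its call when batch 2 was left out (adjusted p = 0.0752). With panobinostat the libraries gave 6406, 5939 and 5400.4 CPM at C1 and 7549, 6009 and 5919 CPM at C5, and the groups overlap (log2 change 0.12 ± 0.21 (SE), adjusted p = 0.76). Apicidin gave 7477, 6234 and 5297 CPM at C1 and 6109.9, 7337 and 4329.8 CPM at C5 (log2 change -0.09 ± 0.23 (SE), adjusted p = 0.81). With valproic acid each C5 library lay below every C1 library, at 5562, 6418 and 4019 against 6989, 6587 and 6451 CPM, but the difference did not pass the test (log2 change -0.33 ± 0.18 (SE), adjusted p = 0.294). With vorinostat TTR stood higher at C3 than at C1, with 8185, 7130.0 and 8313 against 6027, 5729 and 5199 CPM. This difference also missed the adjusted threshold (log2 change 0.50 ± 0.18 (SE), adjusted p = 0.0823). At C4 of vorinostat the log2 change of TTR, like those of all 10 members, lay below 0, and TTR was called at C5.

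RBP4, the retinol carrier that travels bound to TTR, fell in the 7 chemicals. With mocetinostat it went from 4481, 3164 and 3829.7 CPM to 677, 827 and 571 CPM, log2 change -2.39 ± 0.31 (SE), adjusted p = 2.32e-05. The log2 changes in the other chemicals ran from -2.66 (tacedinaline) to -1.05 (panobinostat). The call with scriptaid was lost when batch 1 or batch 2 was left out (adjusted p = 0.145 and 0.138). In scriptaid C4, replicate 3 held 246 CPM against 1741 and 1433 CPM in the other two.

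TF, the iron carrier, fell in 7 chemicals, most with tacedinaline, from 4242, 3695 and 3438 CPM to 192, 172 and 107 CPM (log2 change -4.54 ± 0.17 (SE), adjusted p = 8.67e-25), and next with vorinostat, from 3055, 4159.8 and 3221 CPM to 316, 175 and 144 CPM (log2 change -3.95 ± 0.23 (SE), adjusted p = 6.82e-16). HPX, which binds free heme, fell in the same chemicals, with log2 changes from -4.24 (tacedinaline, 579, 392 and 422 CPM at C1 and 33.5, 18.6 and 19.8 CPM at C5) to -1.29 (panobinostat, 399, 439 and 358 CPM and 173, 179 and 141 CPM). In both genes no C5 library of these chemicals reached its C1 range.

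AHSG, an inhibitor of calcium phosphate precipitation, was called in 7 chemicals at C5. With tacedinaline its libraries held 18.3, 18.3 and 20.9 CPM at C1 and no count at all at C5, a fall of at least 15.3-fold. The bounds were at least 38.9-fold with mocetinostat, at least 35.1-fold with scriptaid and at least 23.2-fold with vorinostat, whose C5 libraries also had at most 3 counts each. Its falls with apicidin, panobinostat and valproic acid were -3.81, -3.80 and -4.22 on the log2 scale. A level of 0 counts in a library of this depth limits the level and does not show absence.

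AMBP, whose product is cut into a heme-binding carrier and a protease inhibitor, fell in the 7 chemicals. With valproic acid it went from 1238, 1252 and 1333 CPM to 491, 488 and 495 CPM, log2 change -1.38 ± 0.12 (SE), adjusted p = 3.61e-08. With tacedinaline it went from 1313, 1145 and 1321 CPM to 99.4, 88.3 and 96.5 CPM, log2 change -3.68 ± 0.14 (SE), adjusted p = 2.27e-24. The remaining log2 changes among the 7 chemicals lay between -3.11 (vorinostat) and -1.13 (panobinostat).

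Trichostatin A was the chemical without called members, and its C1 group held a library that stood apart. ALB at C1 was 24563, 30666 and 7518 CPM and AHSG 71.0, 56.3 and 1.20 CPM, so replicate 3 was far below the other two in both. At C5 ALB was 17337, 22114 and 22953 CPM (log2 change 0.01 ± 0.32 (SE), adjusted p = 0.996). AFM was 108, 85.9 and 10.2 CPM at C1, 121, 151 and 128 CPM at C3 and 30.4, 25.9 and 65.8 CPM at C5. Without that 1 library, 2 members fell at C5 (background 0.645%): AFM (log2 change -1.25, adjusted p = 0.0307) and HPX (log2 change -0.89, adjusted p = 0.0245). Without batch 3 throughout, 5 fell (background 1.44%), namely AFM, GC, RBP4, HPX and AMBP, with log2 changes of -1.75, -1.18, -0.78, -1.01 and -0.69. With all libraries AMBP stood at 0.13, on the other side of 0. With all libraries, 0 of the 10 members had an unadjusted p under 0.05 at C5, and DESeq2 also called none. Without C1 replicate 3 no member was called by edgeR at C2 (background 0%), C3 (0%), C4 (0%) or by slope on concentration (0.349%). At an unadjusted p under 0.05 there were 0 members at C2, 1 above 0 at C3, 1 above 0 at C4 and 6 below 0 by slope. The share of all features at that p is not given here for this setting. The lowest adjusted p by slope was that of HPX (0.0771, log2 change -0.79).

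The members did not reach the threshold at the same concentration. At C2, the only call was that of AFM with mocetinostat (background 0.0383%), and no member was called with apicidin (0.0315%), panobinostat (0%), scriptaid (0%), tacedinaline (0.0883%), trichostatin A (0%), valproic acid (0%) or vorinostat (0.0086%). Of the members in the chemicals with no call at C2, 5 lay below 0 at an unadjusted p under 0.05 with valproic acid. Of all 12982 features there, 656 had such a p in either direction. There were 3 below 0 with tacedinaline (934 of 12461 features), 1 with apicidin (728 of 12706) and 1 with panobinostat (464 of 13104). With vorinostat 1 member lay above 0 (330 of 11631), and scriptaid (164 of 12790) and trichostatin A (718 of 12993) had 0. DESeq2 called 6 falls at C2, of AFM, GC, RBP4, HPX and AMBP with mocetinostat (0.857% of all features by DESeq2) and of AFM with apicidin (0.205%). At C3, 9 members had fallen with tacedinaline (background 6.46%), 8 with apicidin (8.39%), 8 with mocetinostat (5.14%), 5 with valproic acid (0.84%), 5 with vorinostat (3.87%) and 1, AHSG, with scriptaid (0.884%). None had fallen at C3 with panobinostat (0%) or trichostatin A (0%), by edgeR or DESeq2, and 0 members had an unadjusted p under 0.05 there. At C4 the numbers were 9 with tacedinaline (background 16.4%), 9 with vorinostat (16.7%), 8 with apicidin (11.2%), 8 with mocetinostat (11.6%), 8 with valproic acid (6.35%), 4 with scriptaid (2.67%), 2 with panobinostat (1.4%) and 0 with trichostatin A (0%). With trichostatin A at C4, 1 member lay above 0 at an unadjusted p under 0.05 (862 of 12993 features in either direction), and DESeq2 called none falling. Without scriptaid C4 replicate 3, which stood apart, the falling members with scriptaid were 7 at C3 (background 3.67%) and 8 at C4 (6.02%), and the earlier calls were all among them. Without mocetinostat C2 replicate 3, 6 members fell at C2 of mocetinostat (15.6%), namely AFM, GC, RBP4, AHSG, HPX and AMBP, and 1 rose (14.1%), TTR, by 0.87 on the log2 scale (adjusted p = 0.00347, edgeR quasi-likelihood test). Leaving out these libraries was chosen after seeing the data. The 2 members with panobinostat at C4 were AFM and AHSG (-1.98 and -1.75 on the log2 scale). Seen by gene, AFM was called at C3 in 5 chemicals and AHSG in 6, ALB and TF in 5, RBP4 and HPX in 4, GC and AMBP in 3, TTR in 1 and AFP in none. With valproic acid ALB was no lower at C5 than at C4, with 4062, 7133 and 4382 CPM at C4 and 7585, 5716 and 5948 CPM at C5, and its highest 2 concentrations lay close together (2713 and 3038 as labelled). Concentrations were not matched between chemicals, so the order of the chemicals is that of these designs.

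A slope on log2 concentration over all libraries of a chemical, expressed as the log2 change it predicts between C1 and C5, called 10 members as falling with tacedinaline (background 21.5%), 10 with vorinostat (23%), 9 with mocetinostat (17.7%), 9 with scriptaid (6.18%), 8 with apicidin (17.2%), 8 with panobinostat (9.34%), 8 with valproic acid (7.73%) and 0 with trichostatin A (0.0462%), where DESeq2 also called none and 0 members had an unadjusted p under 0.05. The fitted change of ALB ranged from -5.01 (tacedinaline) to -0.95 (panobinostat) in the 7 chemicals. AFP, called with 4 chemicals at C5, passed the slope test with 2, tacedinaline (log2 change -2.38 ± 0.71 (SE), adjusted p = 0.00705) and vorinostat (log2 change -1.86 ± 0.57 (SE), adjusted p = 0.00907). The slope call of AFP with vorinostat was lost without batch 3 (log2 change -1.33, adjusted p = 0.117). The count with panobinostat was 4 without batch 1 (background 4.76%) and 5 without batch 3 (5.42%), and that with scriptaid was 3 without batch 2 (1.18%).

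A test of whether the C5 against C1 change differed between the 8 chemicals, in a model of all 118 libraries, was passed by 10 of 10 members (background 30.3% of 15632 features). Without trichostatin A C1 replicate 3, left out after seeing the data, it was passed by 10 of 10 (background 28.1%). Without trichostatin A it was passed by 9 of 10 (background 21.2%). TF (adjusted p = 1.18e-12) and AMBP (8.32e-12) gave the lowest values among the 7 chemicals. AFM was the member that did not pass (adjusted p = 0.17), with fitted log2 changes from -8.01 (vorinostat, at the floor and so no bound) to -4.89 (panobinostat). Plate and chemical cannot be told apart in this model, since each chemical lay on 1 plate. The slope did not differ between the 3 HepaRG batches for any member in any chemical at an adjusted p under 0.05. The lowest member p-value was 0.0176 (unadjusted, RBP4 with trichostatin A, adjusted p = 0.455), and no feature of any kind passed this test.

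Members differed in how far they fell relative to ALB in the same library, a measure that needs no scaling between libraries. The log2 ratio of TTR to ALB counts was higher at C5 than at C1 in 3 of 3 batches in each of the 7 chemicals, with mean differences from 1.08 ± 0.075 (SD, n = 3) (scriptaid) to 2.25 ± 0.24 (SD, n = 3) (mocetinostat), and 0.23 ± 0.20 (SD, n = 3) with trichostatin A (0.15 and 0.45 in batches 1 and 2, which leave out the C1 library that stood apart). In tacedinaline, valproic acid, vorinostat and scriptaid the mean ratio of TTR to ALB was higher at C4 than at C5. Batch 2 went the other way with scriptaid (log2 ratio -0.78 at C4 and -0.41 at C5) and valproic acid (-0.43 and 0.17). The remaining batches of these chemicals were higher at C4. The scriptaid C4 mean of 0.13 ± 0.91 (SD, n = 3) includes replicate 3 (1.05), which stood apart. For RBP4 the differences ran from 0.18 ± 0.13 (SD, n = 3) (panobinostat) to 1.61 ± 0.19 (SD, n = 3) (tacedinaline) in the 7 chemicals. For TF they ran from -0.97 ± 0.53 (SD, n = 3) (vorinostat) to 0.06 ± 0.44 (SD, n = 3) (valproic acid), and the ratio was lower at C5 in 3 of 3 batches in 5 of the 7 chemicals. These differences are descriptions of 3 batches each and were not tested.

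**Figure D3:**
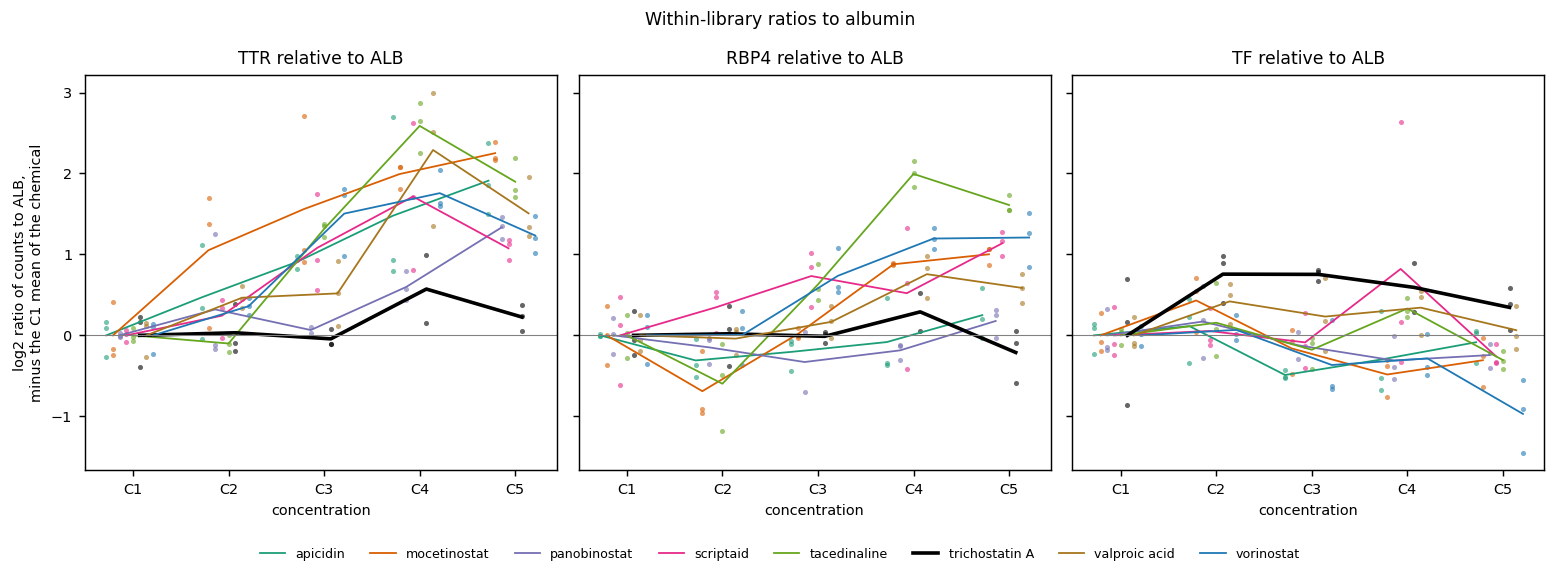
Log2 ratio of TTR, RBP4 and TF counts to ALB counts within each library, minus the C1 mean of the same chemical, against concentration (C1 to C5). Points are libraries, lines join group means and colours are chemicals. The TTR lines lie between 1.08 and 2.25 at C5 in the 7 chemicals other than trichostatin A. In 4 of them the C4 mean is higher, though not in every batch. The TF lines of the 7 chemicals lie between -0.97 and 0.06 at C5.

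Across the 40 group means the members resembled each other to different degrees. The Pearson correlation of log2 CPM was highest for GC and AMBP (r = 0.985) and for ALB and TF (r = 0.971), and lowest for AFP and TTR (r = 0.578). Outside the members, features most like ALB were APOE, an apolipoprotein (r = 0.974), and HPD, of tyrosine breakdown (r = 0.966). TF was most like HPD (r = 0.979) and APOE (r = 0.969), and RBP4 and HPX were both most like APOH (r = 0.980 and r = 0.979). The next for RBP4 were FMO5 (r = 0.967) and PROS1 (r = 0.961), and for HPX they were DPYS (r = 0.969) and F9 (r = 0.969). AFM was most like CFHR3 (r = 0.967), UGT1A9 (r = 0.966) and HAO2 (r = 0.961). GC was most like GATM (r = 0.968), GSTA1 (r = 0.965) and GSTA5 (r = 0.964), the last pair being near-identical genes whose probes may share reads. AMBP was most like CFI (r = 0.971), F9 (r = 0.967) and GSTA1 (r = 0.963). AHSG was most like SERPINC1, which codes for antithrombin (r = 0.956). TTR had weaker matches, in AIFM1 (r = 0.939), CYP2C18 (r = 0.936) and SERPINA4 (r = 0.929), and AFP the weakest, in TPRG1 (r = 0.858), ZNF33B (r = 0.838) and DDX59 (r = 0.815). All these values are correlations over the same 40 group means, which share chemicals, batches and plates.

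Other plasma binding proteins fell in the same chemicals. Of 16 listed genes with 17 features, 12 of 14 were called as falling with apicidin (background 15%), 10 of 14 with mocetinostat (15.7%), 8 of 14 with panobinostat (9.47%), 11 of 14 with scriptaid (17%), 10 of 13 with tacedinaline (20.1%), 8 of 13 with valproic acid (6.22%) and 9 of 12 with vorinostat (24.9%), and 0 of 14 with trichostatin A (0.0154%). None rose. The list medians lay between -3.57 (tacedinaline) and -1.56 (panobinostat) in the 7 chemicals. Ceruloplasmin (CP), the copper oxidase, went from 107 ± 31.1 to 6.20 ± 3.28 CPM with apicidin (log2 change -4.11 ± 0.36 (SE), adjusted p = 3.61e-08), and haptoglobin (HP), which binds free hemoglobin, from 13387 ± 1278 to 1131 ± 328 CPM (log2 change -3.56 ± 0.30 (SE), adjusted p = 2.19e-08). SERPINA7, the thyroxine binding globulin, went from 217 ± 7.02 to 4.34 ± 2.66 CPM with vorinostat (log2 change -5.64 ± 0.31 (SE), adjusted p = 1.72e-16). APOH and ORM1 were also called in 7 chemicals (lowest log2 changes -3.67 and -3.57), and ORM1 shares most of its sequence with ORM2, so their probes may share reads.

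Among 15 transcription factors known to act on the albumin gene cluster or on liver genes, with 17 features, 10 of 16 fell with apicidin (background 15%), 11 of 16 with mocetinostat (15.7%), 6 of 17 with panobinostat (9.47%), 10 of 17 with scriptaid (17%), 9 of 14 with tacedinaline (20.1%), 2 of 17 with valproic acid (6.22%), 8 of 13 with vorinostat (24.9%) and 0 of 17 with trichostatin A (0.0154%). PROX1, a homeobox factor of liver and lymphatic cells, fell in 7 chemicals, in the lowest case by 3.57 on the log2 scale. HNF4A, a nuclear receptor required for hepatocyte identity, fell in 6, and with mocetinostat went from 23.5 ± 3.11 to 0.878 ± 0.811 CPM (log2 change -4.59 ± 0.71 (SE), adjusted p = 1.27e-04). NR1H4, the bile acid receptor, FOXA1, a pioneer factor, and NR5A2, a nuclear receptor of bile acid synthesis, also fell in 6 (lowest log2 changes -6.93, -3.48 and -2.58). DBP, a clock-regulated activator of the albumin promoter, rose in 1 chemical, vorinostat, from 3.38 ± 2.87 to 13.9 ± 3.80 CPM (log2 change 2.25 ± 0.60 (SE), adjusted p = 0.00201).

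Of 13 receptors and partners of the carriers or their cargo, with 14 features, 5 of 9 fell with apicidin (background 15%), 6 of 9 with mocetinostat (15.7%), 4 of 9 with panobinostat (9.47%), 5 of 9 with scriptaid (17%), 6 of 9 with tacedinaline (20.1%), 2 of 9 with valproic acid (6.22%), 5 of 9 with vorinostat (24.9%) and 0 of 10 with trichostatin A (0.0154%). In the other direction, 1 feature rose with apicidin (13.8% of all features) and 1 with mocetinostat (14.8%). The subunits of the asialoglycoprotein receptor, ASGR1 and ASGR2, which clears desialylated plasma proteins, fell in 7 chemicals (lowest log2 changes -7.37 and -6.76). LRP1, the receptor for heme bound to hemopexin, and TTPA, the hepatic vitamin E transfer protein, fell in 6. INSR, the insulin receptor, whose signalling fetuin-A can inhibit, fell in 4. TFRC and STRA6, the receptors for transferrin and for retinol binding protein, were too low to be tested.

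**Figure D4:**
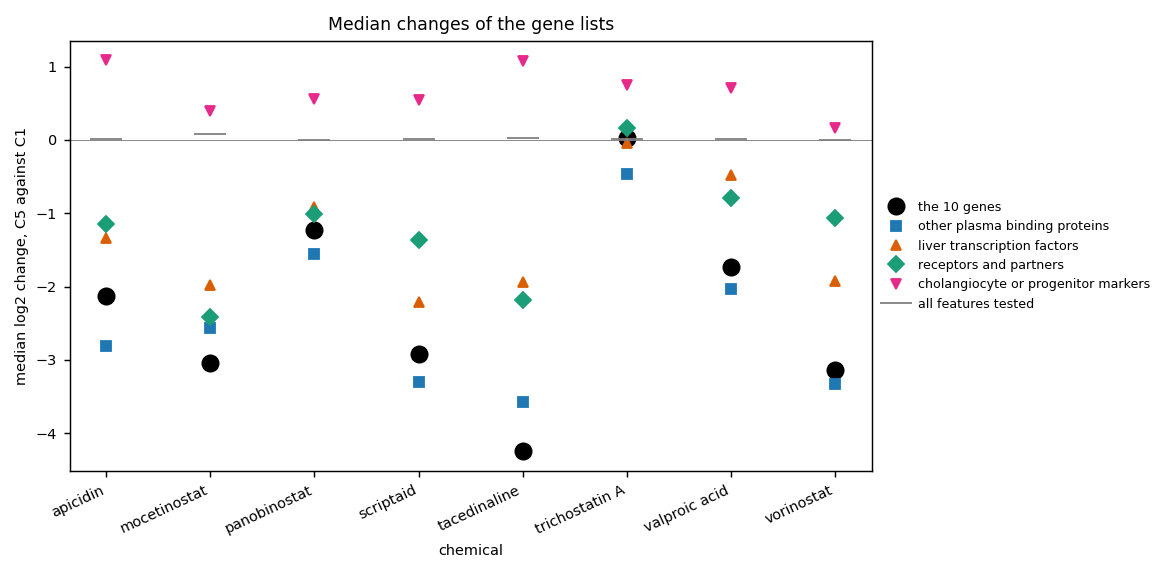
Median log2 change at C5 against C1 (vertical axis) of the 10 genes and of 4 gene lists in each chemical (horizontal axis), with the median of all features tested as a grey bar. The black points of the 10 genes lie between -4.24 and -1.23 in the 7 chemicals other than trichostatin A, below the grey bars near 0.

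Markers of cell types moved in the same comparisons. Of the 12 hepatocyte marker features, 12 fell with apicidin (background 15%), mocetinostat (15.7%), scriptaid (17%), tacedinaline (20.1%), valproic acid (6.22%) and vorinostat (24.9%). With panobinostat 10 fell (9.47%) and with trichostatin A 0 (0.0154%). Their summed level over the 24 C5 libraries lay between 979 and 12754 CPM, with a median of 3624 against 14062 at C1. The cholangiocyte or progenitor markers, 6 of 7 of which were in the table, summed to 63.1 to 161 CPM at C1 and 63.5 to 226 CPM at C5. Of their 4 features tested in the 7 chemicals, none fell. With apicidin 2 rose (13.8% of all features), with mocetinostat 2 (14.8%) and with tacedinaline 3 (18.7%). Each of panobinostat (6.76%), scriptaid (12.8%), valproic acid (4.84%) and vorinostat (22.7%) had 1 rising feature. With vorinostat, 1 of 4 lies near the share of all features. SPP1 and SOX9 rose in 5 chemicals each, and EPCAM and CFTR averaged under 1 CPM in both groups. For KRT19, 1 feature rose in 1 chemical (log2 changes from -0.97 to 0.96) and the other in 0 (-0.51 to 0.36). KRT7 was tested in 1 chemical and was not called (-1.98). Of 12 stromal features, 4 of 8 tested fell with apicidin (background 15%), tacedinaline (20.1%), valproic acid (6.22%) and vorinostat (24.9%). Of 9 tested, 4 fell with mocetinostat (15.7%) and panobinostat (9.47%). Of 8, 2 fell with scriptaid (17%) and 1 with trichostatin A (0.0154%). In the other direction, 1 rose with apicidin (13.8%), panobinostat (6.76%), scriptaid (12.8%) and tacedinaline (18.7%), and 2 with valproic acid (4.84%) and vorinostat (22.7%). COL3A1 and ACTA2 fell in 7 of the 8 chemicals, and COL1A1 rose in 6. Stromal sums lay between 176 and 359 CPM at C1 and between 105 and 230.0 CPM at C5. Endothelial sums were at most 50.2 CPM at C1 and 20.5 CPM at C5, with CDH5 and VWF near 0, and blood sums at most 121 and 52.9 CPM, with PTPRC and HBB at 0. The part of cell composition in the falls of the 10 members was not tested.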

How the data were processed

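The 118 HepaRG libraries were measured by TempO-Seq, and the deposited table holds the counts of probe reads per feature that the authors obtained, with no normalization. The submitters' processing notes name bcl2fastq 2.20.422, fastp 0.23.2, STAR 2.7.10b and DESeq2 1.38.0. Their roles, the genome build and the probe annotation are not given in the sources used here. Of 22069 rows, 1 with 88 missing values was left out. Solvent-control libraries were not analysed here. The members and gene lists were chosen with earlier results of these data known.

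Libraries were grouped by chemical and concentration from the labels. Within each chemical, low features were removed with filterByExpr, counts were scaled by TMM, and C2 to C5 were compared with C1, and a slope on log2 concentration was fitted, with edgeR 4.0.16 (quasi-likelihood test, R 4.3.3) and Benjamini-Hochberg adjustment over all features tested. A feature was called at an adjusted p-value under 0.05 if it also changed at least 1.5-fold. Log2 CPM values, as used for the correlations, had a prior count of 2, and fitted log2 changes had the smaller default of edgeR. Levels are CPM (counts scaled to a fixed library total) with TMM factors over all libraries. Where each library of a group held at most 3 counts, a bound with 3 counts per library is given, and such bounds cover counting error only, because the reads carried no molecular identifiers. Total counts from 1061359 to 5250260 set the precision of each value. Named were all members, the 3 features most like each member by Pearson correlation over group means, and, of each related list, the 5 genes called in the most chemicals in 1 direction at C5 (ties by mean absolute log2 change) with any gene called the other way. Some genes that fall under this rule are not reported here. Motif shares and neighbours come from RefSeq (GRCh38.p14). The scripts were tested on simulated data.

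The labels give the HepaRG batch as the replicate number, which pairs the libraries. The median correlation of deviations from the group means was 0.0361 over 232 pairs of libraries of the same batch and -0.0154 over 464 pairs of different batches. Alternatives were DESeq2 1.42.0, its size factors in edgeR, total counts as library size, no filter, no minimum fold, the batch as a block, thinning of the counts to 1 depth, a slope over C1 to C4 and leaving out libraries.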

Additional observations from a re-analysis of the deposited data

How the results depend on the processing

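Over the 8 chemicals, the members that fell numbered 36 at C3, 48 at C4, 64 at C5 and 62 by slope, and DESeq2 gave 38, 54, 64 and 62. Of the 160 results per member (10 members in 8 chemicals, at C5 and by slope), all 160 kept direction and call under DESeq2, its size factors in edgeR, total counts as library size, no filter on low counts, no minimum fold change and thinned counts. Leaving out 1 batch ended 10 (batch 1), 12 (batch 2) and 8 (batch 3) calls. A slope over C1 to C4, which bears on only the 80 slope results, ended 12. The single fall at C2 was least stable, with 6 by DESeq2, 6 without the filter and 0 to 7 when 1 batch was left out. The slope count with panobinostat, 8, was 4 to 8 when 1 batch was left out and 2 over C1 to C4, and that with scriptaid, 9, was 3 to 9 and 5. For trichostatin A at C5, the 0 falling members became 0 to 5 when 1 batch was left out and 2 without C1 replicate 3. Leaving out scriptaid C4 replicate 3 or mocetinostat C2 replicate 3, chosen after seeing the data, changed none of the 20 results of that chemical at C5 and by slope. AMBP with trichostatin A was 0.13 on the log2 scale with all libraries, 0.77 without batch 1 and -0.69 without batch 3 (adjusted p = 0.0149, edgeR). The cause was not tested.

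With the HepaRG batch as a replicate block, the falling members at C2 were 2. The block changed no call at C5 or by slope and raised the count at C3 from 36 to 41 and at C4 from 48 to 53. For the block, and for most other settings at C2 to C4 or by slope, shares of all features are not given here. Whether these changes in member counts go beyond those over all features was not tested.

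Total counts as library size raised the median change of all features by over 0.1 with mocetinostat (to 0.27), panobinostat (0.10), scriptaid (0.16), tacedinaline (0.22) and valproic acid (0.16), and lowered the share of falling among called features from 51.5 to 40.6% (mocetinostat), 58.3 to 46.3% (panobinostat), 51.8 to 40.6% (tacedinaline) and 56.2 to 38% (valproic acid). Low counts limit AFP, and AFM and AHSG at C5, most.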
